A study of Mus musculus with 16 samples.

Results

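The enzymes that copy, write and erase DNA methylation and the core of Polycomb repressive complex 2 (PRC2) were followed as a set of 10 genes in CD4+ T cells that met antigen briefly, persistently or not at all. The set is Dnmt1, Uhrf1 and Hells, Dnmt3a and Dnmt3b, Tet2 and Tet3, and Ezh2, Suz12 and Eed. The genes were chosen by name, with earlier results of these data known, and each was read from its probe set with the highest mean level. All 10 were measured, out of 18193 genes with a probe set of a single symbol.

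Dnmt1 is the maintenance DNA methyltransferase, which methylates the new strand of DNA after replication. Uhrf1 binds the half-methylated sites left by replication and recruits Dnmt1, and Hells is a chromatin remodeller needed for normal DNA methylation in mice. Dnmt3a and Dnmt3b methylate unmethylated DNA, and Tet2 and Tet3 oxidise methylcytosine, a first step in its removal. Ezh2 is the catalytic subunit of PRC2 and methylates lysine 27 of histone H3, a mark of silenced genes, while Suz12 and Eed are the partners it needs for activity. In T cells both systems are known for keeping genes of other lineages silent.

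The cells were AND T cells, which carry a transgenic receptor for a moth cytochrome c peptide, taken from the lymph nodes of donors with the congenic marker CD90.1. They were transferred into B10.BR mice of 6 to 8 weeks, and CD4+CD90.1+ cells were flow sorted 60 h later. Persistent antigen (long doxycycline) and transient antigen (short doxycycline) were given in Ii-rTA+, TIM+ recipients, in which doxycycline controls the peptide and dendritic cells present it. Recipients without antigen were Ii-rTA-, TIM+ and had no doxycycline, so genotype and doxycycline exposure cannot be told apart from antigen in any comparison with them. Recipients in each regime had either PBS or FGK45.5, an anti-CD40 antibody that stimulates dendritic cells through CD40. Persistent antigen had 3 arrays with anti-CD40 and 3 with PBS. Transient antigen had 2 with anti-CD40 and 3 with PBS, and no antigen had 2 with anti-CD40 and 3 with PBS. The labels do not say that replicates came from separate mice, though replicate 1 differed in sex from replicates 2 and 3, as given below. The p-values measure only the spread between these samples, which may in part be technical. The measurement is of bulk RNA, so a lower share of cells that express a gene and less of its RNA per cell cannot be told apart.

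Median intensity lay between 18.2 and 21.3 over the 16 arrays. Of 12 T cell markers 10 were measured, and their mean log2 level was 8.74 to 9.59 in every array, against 4.94 for the median gene. That mean was 8.74 to 9.04 in all arrays of persistent antigen and of transient antigen with anti-CD40, and 9.18 to 9.59 in the other arrays. Its part in the results was not tested. All 7 measured granulocyte markers and 6 of 8 markers of stroma and endothelium lay below the median gene. For dendritic cells and macrophages that held for 7 of 13 markers, for B cells for 6 of 10 measured, for NK and CD8 T cells for 3 of 7 and for erythrocytes for 4 of 5. Ighm, at a mean of 9.69, and Cd22, at 7.39, were the highest B cell markers. The summed intensity of the B cell markers was 1194 to 1723 with persistent antigen and PBS, 1107 to 1696 with transient antigen and PBS and 727 to 1179 without antigen and with PBS. With anti-CD40 it was 1299 to 1552, 1019 to 1199 and 949 to 1101 in the same order. Of the 10, 1 rose between persistent and no antigen with PBS without the block described below, where 3.57% of all genes passed. With the block 2 rose and 1 fell, where 9.93% of all genes rose and 6.79% fell. The part of these markers in the results was not tested. The replicates differed in sex: Eif2s3y, on the Y chromosome, read 8.86 to 9.93 in replicate 1 and 2.61 to 3.09 in replicates 2 and 3. By the array numbers in the labels, the replicate 2 arrays with antigen and those without lie in separate consecutive runs. Arrays with the same replicate number deviated together, so differences are given without and with the replicate number as a block. A standard error (SE) is that of the fit without the block unless the sentence says otherwise.

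Part of the set shares a short promoter sequence. E2F factors drive genes of DNA replication and bind a consensus of TTT, 2 bases that are each G or C, and CGC. This was searched on both strands of RefSeq promoter windows of GRCm38.p6, which reach from 250 bases before to 50 after a gene's start. All 10 genes had a window, and 5 of them (Dnmt1, Uhrf1, Hells, Ezh2 and Suz12) held a match. So did 704 of 27025 genes (2.6%) and 575 of 17492 protein-coding genes (3.29%). In an S phase list 10 of 21 genes held a match (47.6%), and in a mitosis list 1 of 16 (6.25%). The stretches around these matches are shown because 4 of the 5 genes gave the widest increases described below, with the match in capitals and each read 5′ to 3′ along its gene.
Dnmt1, chr9:20952809-20952868, minus strand: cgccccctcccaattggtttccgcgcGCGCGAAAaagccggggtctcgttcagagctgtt
Uhrf1, chr17:56304102-56304161, plus strand: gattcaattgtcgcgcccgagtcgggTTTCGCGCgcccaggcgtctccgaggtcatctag
Hells, chr19:38930902-38930961, plus strand: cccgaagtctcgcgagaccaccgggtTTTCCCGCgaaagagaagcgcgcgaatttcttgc
Ezh2, chr6:47595011-47595053, minus strand: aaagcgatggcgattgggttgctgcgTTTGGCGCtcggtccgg
Suz12, chr11:79992861-79992920, plus strand: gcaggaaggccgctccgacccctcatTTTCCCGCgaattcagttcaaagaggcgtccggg
In Dnmt1 the match lies on the opposite strand, 219 bases before a start, and the window holds a further match not shown. The match begins 219, 185 and 62 bases before a start in Suz12, Uhrf1 and Hells, and 3 bases after it in Ezh2. Dnmt1 had 3 windows and Uhrf1 had 2, and the other windows of these genes held no match. No window of Dnmt3a, Dnmt3b, Tet2, Tet3 or Eed held these letters. A match is a description of the sequence, and no binding was measured.

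With PBS, persistent antigen gave higher levels of the maintenance genes Dnmt1 and Hells and of the Polycomb enzyme Ezh2 than no antigen. These 3 of the 10 genes passed an adjusted p of 0.05 in limma over 18193 genes, where 3.57% of all genes passed. With the replicate block Uhrf1 and Suz12 rose as well, and Dnmt3a and Tet2 fell, which made 7 of 10 against 16.7% of all genes (9.93% higher and 6.79% lower). The median log2 difference of the 10 genes was 0.54, against −0.03 over all genes. Without none PBS replicate 2 or persistent PBS replicate 1 the unblocked count was 1. Against transient antigen with PBS, Hells alone rose without the block, where 0.929% of all genes passed. With the block the same 7 genes passed in the same directions, against 11.4% of all genes (5.99% higher and 5.44% lower). For transient antigen against no antigen, both with PBS, 0 of the 10 genes passed without the block, where 0.126% of all genes passed and Ezh2 was the only member with an unadjusted p under 0.05. With the block Ezh2 rose, against 2.89% of all genes.

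**Figure D1:**
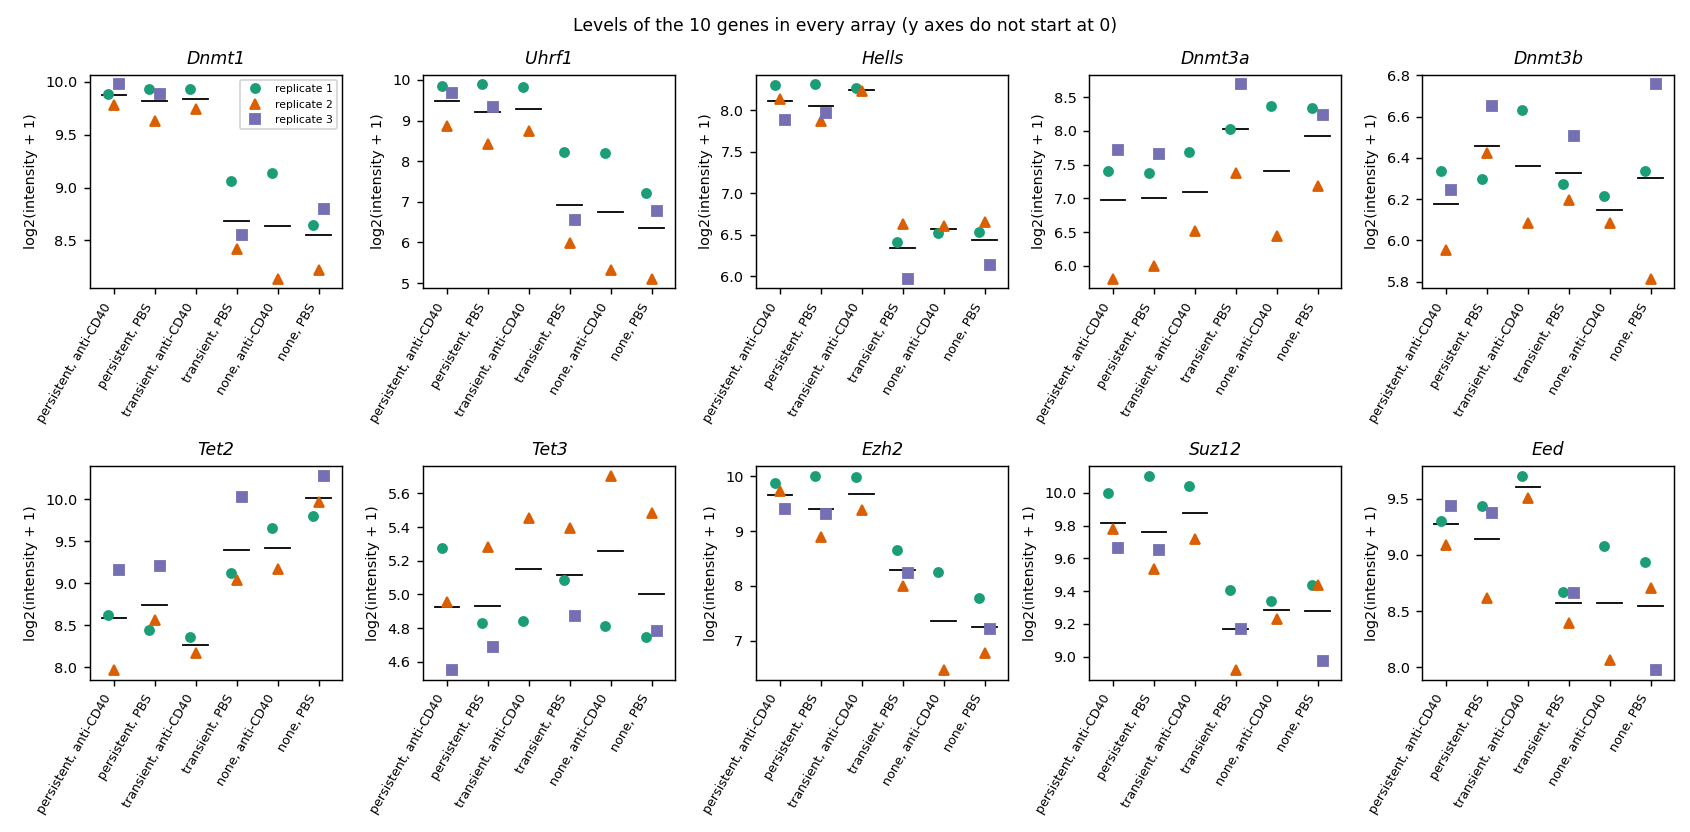
Level of each of the 10 genes in every array, as log2(intensity + 1) on the vertical axes, for the 6 groups on the horizontal axes. Points are arrays, shaped by replicate number, and bars are group means. For Dnmt1, Uhrf1, Hells and Ezh2 every array of persistent antigen and of transient antigen with anti-CD40 lies above every array of the other 3 groups.

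Among the maintenance genes, Dnmt1 read 9.93, 9.63 and 9.88 with persistent antigen and PBS (log2 level, replicates 1, 2 and 3). It read 9.06, 8.42 and 8.56 with transient antigen and PBS, and 8.65, 8.22 and 8.80 without antigen. The persistent arrays lay above all others with PBS, while transient and no antigen overlapped. Persistent antigen gave 2.39-fold more signal than no antigen, a log2 difference of 1.26 ± 0.28 (SE, adjusted p = 0.023, and 3.3e-05 with the block). Against transient antigen the difference was 1.13 ± 0.28 (adjusted p = 0.085, and 0.00021 with the block). Transient minus no antigen was 0.12 ± 0.28, with a 95% interval of −0.48 to 0.73 (−0.24 to 0.49 with the block). Without the block the call over no antigen was lost in 4 of the 16 fits that left out an array, with adjusted p up to 0.11.

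Uhrf1 had the widest range of the 10 genes, 4.79 on the log2 scale over the 16 arrays. With PBS it read 9.90, 8.44 and 9.34 under persistent antigen, 8.23, 5.99 and 6.55 under transient antigen, and 7.22, 5.11 and 6.77 without antigen. Replicate 2 was the lowest array of every group, and every persistent array lay above every other PBS array. Persistent minus no antigen was 2.86 ± 0.76, a 7.24-fold difference that missed the threshold without the block (adjusted p = 0.057) and passed with it (8.3e-07). Within each replicate number the difference was 2.57 to 3.33. Persistent minus transient antigen was 2.30 ± 0.76 (adjusted p = 0.22, and 2.8e-05 with the block). Transient minus no antigen was 0.55 ± 0.76 (adjusted p = 1, and 0.40 with the block). A second, dimmer Uhrf1 probe set gave 0.34 for persistent minus no antigen and did not pass in either fit.

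Hells read 8.31, 7.87 and 7.97 with persistent antigen and PBS, 6.41, 6.63 and 5.97 with transient antigen and PBS, and 6.54, 6.65 and 6.14 without antigen. The persistent arrays stood more than 1 log2 unit above both other groups, which overlapped. The difference was 1.61 ± 0.24 over no antigen (3.05-fold, adjusted p = 0.0016) and 1.71 ± 0.24 over transient antigen (3.27-fold, adjusted p = 0.0046). Transient minus no antigen was −0.10 ± 0.24 (adjusted p = 1, and 0.85 with the block). With the block all 3 Hells probe sets rose under persistent antigen over no antigen, at 1.57 to 2.23.

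The catalytic Polycomb subunit stood at 3 separate levels with PBS. Ezh2 read 10.01, 8.89 and 9.30 with persistent antigen and PBS, 8.65, 7.99 and 8.23 with transient antigen and PBS, and 7.79, 6.77 and 7.22 without antigen. No array of a regime overlapped another regime's, and replicate 1 was the highest in each. Persistent minus no antigen was 2.14 ± 0.43 (4.42-fold, adjusted p = 0.012, or 0.062 without none PBS replicate 2 and 0.077 without persistent PBS replicate 1), and 2.09 to 2.22 within each replicate number. Transient minus no antigen was 1.03 ± 0.43, a 2.04-fold difference with adjusted p = 1 without the block and 0.012 with it. It was higher in 3 of 3 replicate numbers, by 0.86 to 1.22, but the blocked call was lost without transient PBS replicate 2 (adjusted p = 0.087) or 3 (0.059). Persistent minus transient antigen was 1.11 ± 0.43 (adjusted p = 0.32, and 0.0019 with the block).

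The partners of Ezh2 had smaller differences. Suz12 read 10.11, 9.53 and 9.65 with persistent antigen and PBS, 9.41, 8.92 and 9.17 with transient antigen and PBS, and 9.44, 9.43 and 8.97 without antigen. Its persistent arrays lay just above the others, with differences of 0.48 ± 0.24 over no antigen (adjusted p = 0.45, and 0.038 with the block) and 0.60 ± 0.24 over transient antigen (0.36, and 0.015 with the block). The blocked call over no antigen was lost in 5 of the 16 fits that left out an array, with adjusted p up to 0.19. Eed read 9.43, 8.62 and 9.37 with persistent antigen, 8.67, 8.40 and 8.66 with transient antigen, and 8.94, 8.71 and 7.98 without antigen, all with PBS. These groups overlapped, and its 0.60 ± 0.33 over no antigen did not pass in either fit (adjusted p = 0.50, and 0.080 with the block).

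The de novo methyltransferase Dnmt3a went the other way. It read 7.37, 5.99 and 7.65 with persistent antigen and PBS, 8.03, 7.37 and 8.69 with transient antigen and PBS, and 8.35, 7.19 and 8.24 without antigen. Replicate 2 was the lowest in each group and the groups overlapped, but within each replicate number persistent antigen was lower than no antigen, by −1.19 to −0.59. The difference was −0.92 ± 0.64 (adjusted p = 0.66, and 0.0030 with the block). Against transient antigen it was −1.03 ± 0.64 (adjusted p = 0.61, and 0.0021 with the block). Of 5 Dnmt3a probe sets 3 fell with the block in the first of these comparisons, and the 5 ranged over −1.04 to 0.20.

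Tet2 had its highest levels without antigen. It read 8.45, 8.57 and 9.21 with persistent antigen and PBS, 9.13, 9.04 and 10.03 with transient antigen and PBS, and 9.81, 9.97 and 10.28 without antigen. Every persistent array lay below every array without antigen, and the transient arrays lay across the gap. Persistent minus no antigen was −1.28 ± 0.35, or 0.412-fold (adjusted p = 0.065, and 2.9e-05 with the block). Against transient antigen it was −0.66 ± 0.35 (adjusted p = 0.53, and 0.019 with the block), a call that 4 of the fits leaving out an array lost. Transient minus no antigen was −0.62 ± 0.35 (adjusted p = 1, and 0.067 with the block). A second, dimmer Tet2 probe set was at −0.46 for persistent minus no antigen with PBS (adjusted p = 0.13 with the block) and passed in neither fit in any comparison.

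Dnmt3b and Tet3 passed in no comparison and in neither fit. Dnmt3b stayed between 5.81 and 6.76 in all 16 arrays, and Tet3 between 4.55 and 5.71, near the median gene. For persistent minus no antigen with PBS the 95% intervals of the blocked fit were −0.21 to 0.52 for Dnmt3b and −0.46 to 0.32 for Tet3. A second, dimmer Dnmt3b probe set passed with the block in a single comparison, transient antigen against no antigen with anti-CD40, at 0.76.

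**Figure D2:**
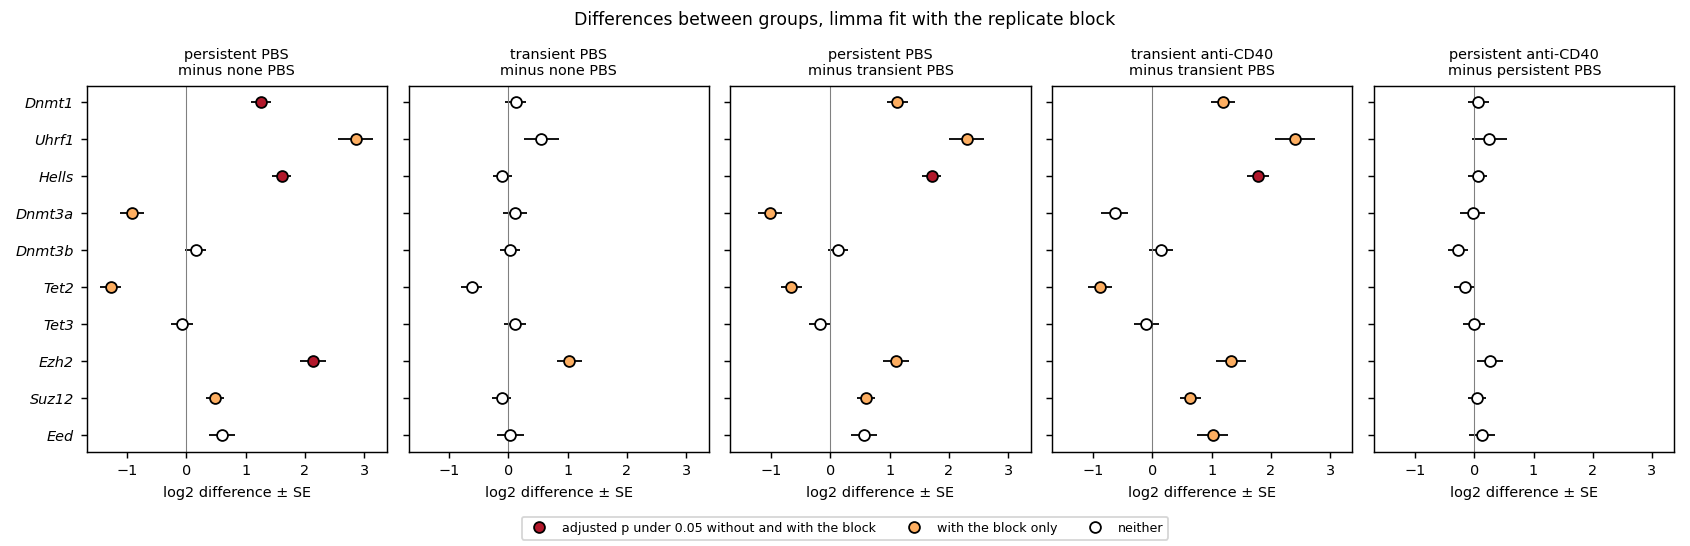
Log2 difference of each gene with its standard error (horizontal axis) in 5 comparisons, from the limma fit with the replicate block. Red points passed an adjusted p of 0.05 without and with the block, orange points with the block only, and white points in neither. Dnmt1, Uhrf1, Hells and Ezh2 lie between 1.11 and 2.86 in the persistent PBS panels and in the panel of anti-CD40 under transient antigen, while the 10 genes lie between −0.28 and 0.26 in the panel of anti-CD40 under persistent antigen.

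Under transient antigen, cells with anti-CD40 had more Hells than cells with PBS, and with the block more of 5 other genes of the set and less Tet2. With transient antigen and anti-CD40, Hells read 8.27 and 8.23 (replicates 1 and 2), Dnmt1 9.93 and 9.74, Uhrf1 9.84 and 8.73, and Ezh2 9.98 and 9.38. Each of these arrays lay above all 3 arrays of transient antigen with PBS. Against transient PBS, Hells passed without the block, at 1.91 ± 0.26 (3.76-fold, adjusted p = 0.0098), where 0.638% of all genes passed. That call rested on 2 arrays and was lost without transient anti-CD40 replicate 1 (adjusted p = 0.32). With the block Dnmt1 (1.19 ± 0.20, SE with the block as in the rest of the sentence, adjusted p = 0.00062), Uhrf1 (2.41 ± 0.33, 0.00012), Ezh2 (1.33 ± 0.25, 0.0016), Suz12 (0.64 ± 0.18, 0.023) and Eed (1.02 ± 0.26, 0.013) rose as well. Tet2 fell, at −0.89 ± 0.20 (SE with the block, adjusted p = 0.0065), so that 7 of 10 genes passed with the block, against 10.5% of all genes (7.59% higher and 2.92% lower). Suz12 read 10.04 and 9.72 and Eed 9.70 and 9.51 with transient antigen and anti-CD40, and Tet2 8.36 and 8.18. Without transient anti-CD40 replicate 1 the blocked count was 4. The blocked calls of Suz12 and Eed were lost in 4 and in 3 of the fits that left out an array. Dnmt3a read 7.69 and 6.51, and its −0.64 ± 0.23 did not pass with the block (SE with the block, adjusted p = 0.098). The second, dimmer Eed probe set gave −0.13 here and did not pass.

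Among the anti-CD40 groups, transient antigen was set against no antigen. Without antigen and with anti-CD40, Hells read 6.52 and 6.61, Dnmt1 9.14 and 8.14, Uhrf1 8.19 and 5.31, and Ezh2 8.26 and 6.47. Every one of these was below both transient arrays of its gene. In the same arrays Suz12 read 9.34 and 9.23, Eed 9.08 and 8.07, Tet2 9.67 and 9.17 and Dnmt3a 8.36 and 6.44. Hells passed without the block, at 1.69 ± 0.29 (adjusted p = 0.022), where 0.572% of all genes passed. The count was 0 without none anti-CD40 replicate 2 or either transient anti-CD40 array, and 3 without none anti-CD40 replicate 1. With the block Dnmt1, Uhrf1, Hells, Ezh2, Suz12 and Eed rose and Tet2 fell, 7 of 10 genes against 14.0% of all genes (10.5% higher and 3.48% lower). Ezh2 and Uhrf1 differed most, by 2.31 ± 0.27 (adjusted p = 2.1e-05) and 2.53 ± 0.36 (8.7e-05) with the block. The blocked call of Suz12 was lost in 10 of the 16 fits that left out an array (adjusted p up to 0.21) and that of Eed in 3 (up to 0.30), and both were lost with cyclic loess. The second Eed probe set gave −0.22. Persistent antigen against no antigen, both with anti-CD40, raised Hells (1.54 ± 0.26, adjusted p = 0.0091) and Ezh2 (2.30 ± 0.49, 0.024) without the block, where 2.37% of all genes passed. With the block 5 genes rose (Dnmt1, Uhrf1, Hells, Ezh2 and Suz12) and 2 fell, Tet2 at −1.08 ± 0.20 and Dnmt3a at −0.72 ± 0.23 (SE with the block, adjusted p = 0.00083 and 0.040), against 16.4% of all genes (10.9% higher and 5.50% lower). The Dnmt3a call was lost in 6 of the 16 fits that left out an array, at −0.35 without none anti-CD40 replicate 1 (adjusted p = 0.43), and with probe sets averaged. The Suz12 call was lost in 5. Both anti-CD40 arrays without antigen decide much of this: without none anti-CD40 replicate 2 the unblocked count was 0 and Ezh2 had an adjusted p of 0.42, and without replicate 1 it was 4. Without any 1 of the persistent anti-CD40 arrays it was 1.

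Where antigen persisted, no gene of the set passed between anti-CD40 and PBS. With persistent antigen and anti-CD40, Dnmt1 read 9.88, 9.78 and 9.98, Uhrf1 9.86, 8.88 and 9.69, Hells 8.31, 8.14 and 7.88, and Ezh2 9.87, 9.72 and 9.40. Suz12 averaged 9.81 ± 0.17 (SD, n = 3), and Eed read 9.30, 9.09 and 9.43, Tet2 8.62, 7.97 and 9.16, and Dnmt3a 7.41, 5.81 and 7.71. For each of these genes the arrays overlapped those with PBS given above. Against persistent PBS 0 of 10 genes passed in limma without or with the block, and 0% of all genes did. None of the 10 had an unadjusted p under 0.05 in either fit, while 110 genes of all did without the block and 484 with it. The blocked 95% intervals were −0.30 to 0.43 for Dnmt1, −0.28 to 0.40 for Hells, −0.20 to 0.72 for Ezh2 and −0.36 to 0.86 for Uhrf1. Persistent against transient antigen, both with anti-CD40, also gave 0 of 10 genes in either fit, where 0.00550% of all genes passed without the block and 0.0770% with it. Its blocked intervals were −0.41 to 0.43 for Dnmt1, −0.41 to 0.37 for Hells and −0.91 to 0.07 for Dnmt3a. Anti-CD40 without antigen gave 0 of 10 genes in either fit, where 0% of all genes passed without the block and 0.00550% with it. In these last 2 comparisons too, none of the 10 had an unadjusted p under 0.05, where 355 and 317 of all genes did without the block and 1112 and 965 with it.

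**Figure D3:**
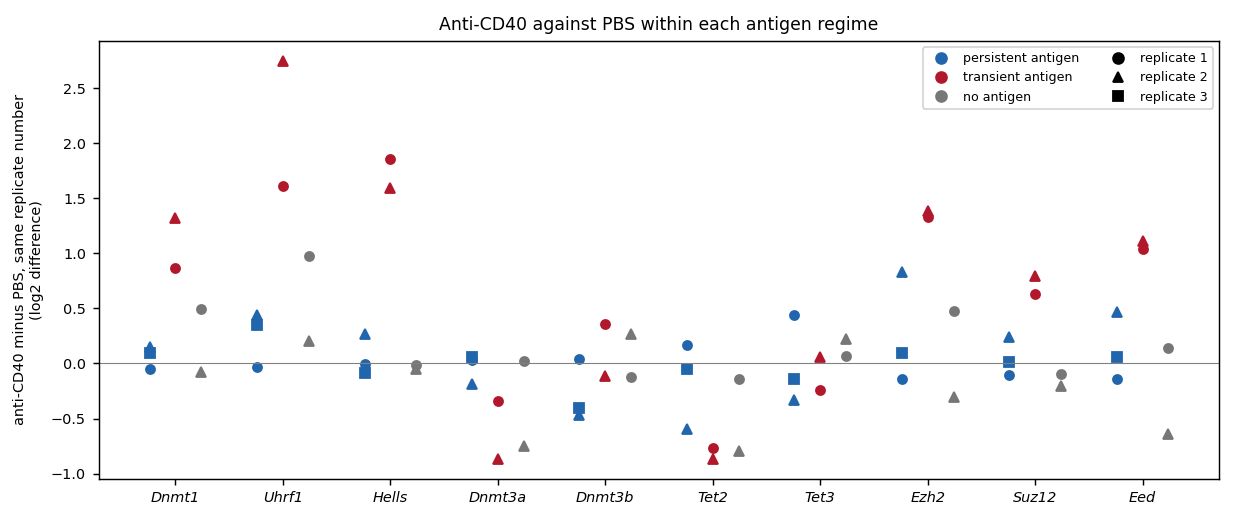
Anti-CD40 minus PBS within each replicate number (vertical axis, log2 difference) for each of the 10 genes (horizontal axis). Colours are antigen regimes and shapes are replicate numbers. Under transient antigen both differences are above 0.6 for Dnmt1, Uhrf1, Hells, Ezh2, Suz12 and Eed and below −0.7 for Tet2, while under persistent antigen Hells lies between −0.09 and 0.27 and Dnmt1 between −0.05 and 0.15.

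The difference between these anti-CD40 effects was tested as an interaction. The anti-CD40 effect under transient antigen minus that under no antigen was 1.79 ± 0.26 for Hells (SE with the block as for the other interactions, adjusted p = 0.63 without the block and 0.0029 with it). It was 1.98 ± 0.46 for Uhrf1 (1, and 0.022 with the block), 1.07 ± 0.28 for Dnmt1 (0.94, and 0.037) and 1.28 ± 0.35 for Ezh2 (1, and 0.045). Without the block 0 of 10 genes and 0% of all genes passed, while 2 of the 10 and 895 of all 18193 genes had an unadjusted p under 0.05. With the block 4 passed, against 3.69% of all genes. Under persistent minus transient antigen the anti-CD40 effect was −1.73 ± 0.25 for Hells (SE with the block, adjusted p = 0.0030 with the block), −2.16 ± 0.44 for Uhrf1 (0.019) and −1.12 ± 0.27 for Dnmt1 (0.036). There too 0 of 10 genes and 0% of all genes passed without the block, while 2 of the 10 and 628 of all genes had an unadjusted p under 0.05. With the block 3 passed, against 1.79% of all genes. Ezh2 was at −1.07 ± 0.33 in this term and did not pass (SE with the block, adjusted p = 0.13 with the block). Both Hells interactions held with the block in all 16 fits that left out an array. Those of Dnmt1, Uhrf1 and Ezh2 did not: without none anti-CD40 replicate 2, for example, the first interaction was at an adjusted p of 0.28 for Dnmt1, 0.22 for Uhrf1 and 0.36 for Ezh2. Persistent minus no antigen gave 0 of 10 genes in either fit, as for all genes (0%).

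Genes of DNA replication rose with persistent antigen and PBS, as did part of the set, while Tet2 and Dnmt3a fell with the block. Of a list of 26 S phase genes 16 rose with persistent against no antigen, both with PBS, and 26 with the block, with a median log2 difference of 2.10, where 3.57% of all genes passed without the block and 9.93% rose with it. Their summed intensity was 14694 to 27058 with persistent antigen and PBS, 4420 to 9668 with transient antigen and PBS and 4086 to 8127 without antigen. With transient antigen and anti-CD40 it was 17590 to 27109. None of the 26 was below the median gene. For transient against no antigen with PBS 0 of the 26 passed in either fit, with a median of 0.09, in the same arrays in which Ezh2 differed by 1.03. In that comparison 0 of 19 measured mitosis genes (20 listed) passed without the block, where 0.126% of all genes did. With the block 9 rose, with a list median of 0.97, where 2.89% of all genes passed in either direction. Against no antigen, persistent antigen with PBS raised 17 of the 19, and 18 with the block. The part of S phase or mitosis in the levels of the 10 genes was not tested.

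**Figure D4:**
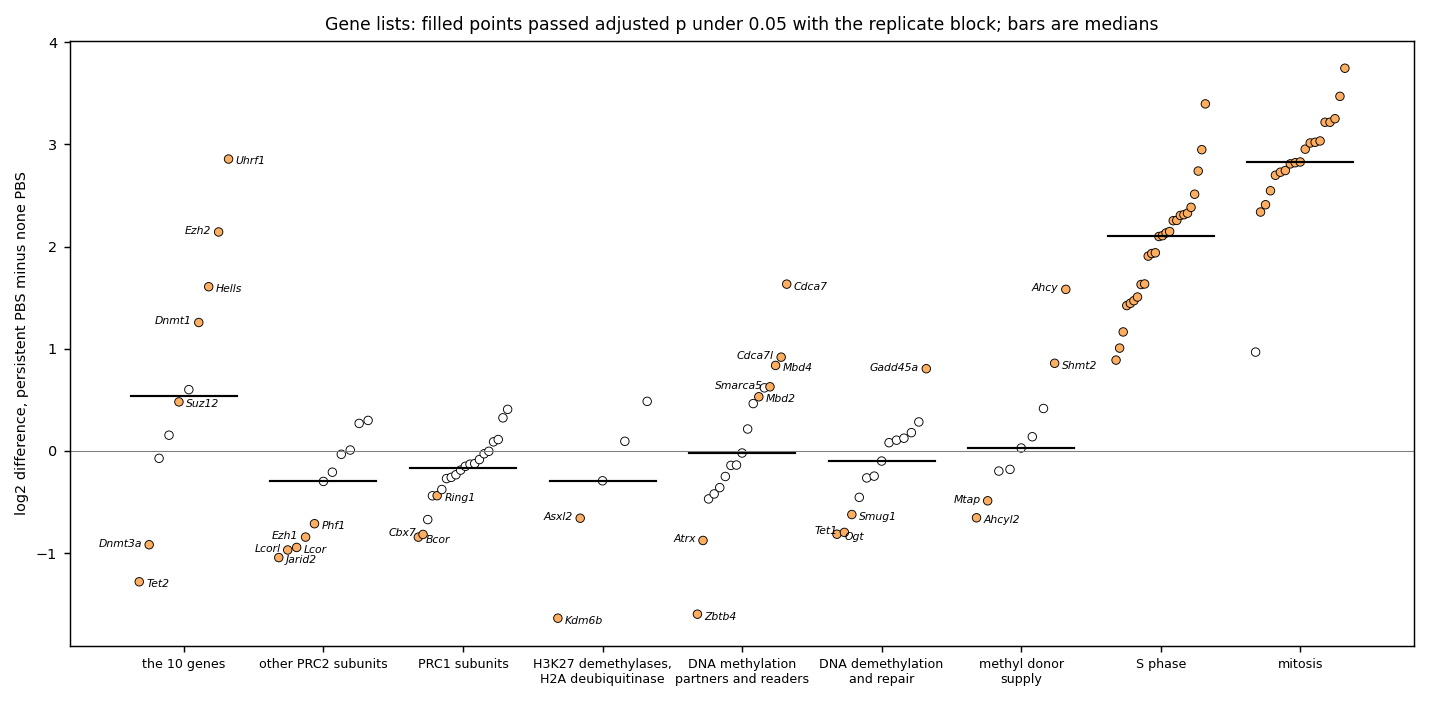
Log2 difference of persistent minus no antigen, both with PBS (vertical axis), for the members of 9 gene lists (horizontal axis). Each point is a gene, filled where it passed an adjusted p of 0.05 with the replicate block, and bars are medians. The S phase and mitosis lists lie above 0 in full, with medians of 2.10 and 2.83, while the other PRC2 subunits hold 5 filled points, all below 0.

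Between persistent and no antigen with PBS, in which Ezh2 rose, 0 of 11 other measured subunits and cofactors of PRC2 passed without the block, where 3.57% of all genes did. With the block 0 rose, where 9.93% of all genes did, and 5 fell, where 6.79% did, at a list median of −0.30. Ezh1, the second catalytic subunit, was at −0.84 ± 0.28 (adjusted p = 0.16, and 0.0039 with the block). Jarid2, which helps bring PRC2 to chromatin, was at −1.04 ± 0.40 (0.24, and 0.00016), and Phf1, another accessory subunit, at −0.71 ± 0.28 (0.24, and 0.0043). Under transient antigen, anti-CD40 minus PBS was −1.23 ± 0.32 for Ezh1 (adjusted p = 0.10, and 0.0028 with the block) and −1.27 ± 0.45 for Jarid2 (0.28, and 0.0019). With anti-CD40, 1 of the 11 rose and 4 fell with the block in transient against no antigen (10.5% and 3.48% of all genes). The counts were the same in persistent against no antigen (10.9% and 5.50% of all genes). The gene that rose was Rbbp7, a histone-binding protein shared with other complexes, at 0.58 under transient antigen (adjusted p = 0.62, and 0.024 with the block) and 0.47 under persistent antigen with the block (0.046, and 0.47 without it). The rule for named genes gives Rbbp7 under persistent antigen only. Its value under transient antigen lies outside that rule and was added after the values were seen. Of 5 demethylases of the PRC2 mark and subunits of the H2A deubiquitinase 2 fell with the block between persistent and no antigen with PBS, where 6.79% of all genes did. These were Kdm6b, a demethylase of H3 lysine 27, at −1.64 ± 0.63 (adjusted p = 0.24, and 1.1e-05 with the block) and Asxl2 at −0.66 ± 0.33 (0.43, and 0.014). Kdm6b was also lower under transient antigen than without antigen, at −0.94 ± 0.63 (adjusted p = 1, and 0.016 with the block).

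Subunits of the other Polycomb complex, PRC1, were listed likewise. Of 22 listed and 20 measured genes 0 passed without the block between persistent and no antigen with PBS. With the block 3 fell, where 6.79% of all genes did and 16.7% passed in either direction: Bcor (−0.84 ± 0.17, SE with the block, adjusted p = 0.0012), Cbx7 (−0.82 ± 0.21, 0.010), which binds the PRC2 mark, and Ring1 (−0.44 ± 0.14, 0.044). The list median was −0.17. Pcgf6, a subunit of a variant PRC1, was higher with anti-CD40 under transient antigen in both fits, by 1.17 ± 0.19 with the block (adjusted p = 0.00046, and 0.039 without it). Its transient minus no antigen difference with PBS was −0.80 ± 0.21 (0.35, and 0.011 with the block).

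Of 18 listed and 17 measured partners and readers of DNA methylation, 1 passed without the block between persistent and no antigen with PBS, and 5 rose and 2 fell with it, where 9.93% of all genes rose and 6.79% fell. Zbtb4, a zinc finger protein that binds methylated DNA, fell in both fits, at −1.60 ± 0.39 (adjusted p = 0.034, and 2.2e-06 with the block). Cdca7, the partner that activates Hells, rose with the block at 1.63 ± 0.56 (0.16, and 2.4e-05). Mbd4, a repair glycosylase that reads methylated sites, was at 0.84 ± 0.23 (0.062, and 0.00050 with the block). Among 13 measured genes of active demethylation and repair, 0 passed without the block, and 1 rose and 3 fell with it, against the same 9.93% and 6.79% of all genes. Tet1, the remaining Tet enzyme, was at −0.80 ± 0.28 (adjusted p = 0.18, and 0.025 with the block) and Smug1, a uracil glycosylase, at −0.62 ± 0.23 (0.21, and 0.0075). Gadd45a was at 0.81 ± 0.30 (0.21, and 0.00072), but its mean level of 3.34 lies below the median gene.

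The supply of methyl groups held a further call in both fits. Ahcy clears S-adenosylhomocysteine, the product that inhibits methyltransferases. It rose by 1.58 ± 0.28 with persistent against no antigen (adjusted p = 0.0050) and by 1.39 ± 0.28 against transient antigen (0.029), both with PBS. Under transient antigen anti-CD40 raised Ahcy by 1.84 ± 0.31 (0.025) and Shmt2, a mitochondrial enzyme of the folate cycle, by 2.08 ± 0.41 (0.040). Of 9 measured genes of this list (12 listed) 1 rose without the block between persistent and no antigen, and 2 rose and 2 fell with it, against 9.93% and 6.79% of all genes.

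Ordered by mean level across the 6 groups, Dnmt1, Uhrf1, Hells, Ezh2 and Suz12 each had a single step between neighbours that exceeded the larger SD of the pair. It separated persistent antigen with either treatment and transient antigen with anti-CD40, above it, from the other 3 groups. The step was 1.13 in Dnmt1, 2.30 in Uhrf1, 1.48 in Hells, 1.11 in Ezh2 and 0.47 in Suz12. Eed had such a step of 0.57 at the same place and another of 0.33 between its highest groups, transient and persistent antigen with anti-CD40. Tet2 was lowest with transient antigen and anti-CD40, at 8.27 ± 0.13 (SD, n = 2), and highest without antigen and with PBS, at 10.02 ± 0.24 (SD, n = 3). It had such a step of 0.66 at the same place, in the reverse direction. Another of 0.60 lay between its highest groups, no antigen with PBS and with anti-CD40. In Dnmt3a, Dnmt3b and Tet3 no neighbours differed beyond their SD.

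Over the 16 arrays Dnmt1 and Uhrf1 correlated at r = 0.97 and Ezh2 with each of them at 0.94. Suz12 and Eed correlated at 0.85, and Tet2 ran against Hells at −0.85. Dnmt3a correlated with Tet2 at 0.70 and with Dnmt1 at −0.23. These values are descriptions, since the arrays share the group and replicate differences. Of 8811 genes above the median level, the ones most like Uhrf1 were Rrm1, Chek1 and Rrm2, at r = 0.993, 0.993 and 0.992. Fen1 was most like Dnmt1 (0.988), Orc6 most like Hells (0.968) and Cdk2 most like Suz12 (0.95). Acsl5 was most like Ezh2 (0.991), and Naa15 most like Eed (0.96). Jarid2 was most like Tet2 (0.952), and Rab37 most like Dnmt3a (0.973). The nearest genes to Dnmt3b and Tet3, Selenos and Cox4i2, reached 0.807 and 0.902.

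Several genes had more than 1 probe set, and those of Dnmt1 and Hells gave the same direction and passed with the block in all 3 sets for persistent antigen with PBS against both no and transient antigen. Of 6 Suz12 probe sets all 6 were higher with persistent than without antigen, both with PBS, and 1 passed with the block. With anti-CD40, 5 of the 6 were higher in that comparison and 3 passed with the block. The probe sets used for Dnmt1 and Suz12 carry the manufacturer's x and s suffixes, which mark probes shared with other transcripts. The levels of different genes were not set against each other.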

How the data were processed

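RNA of sorted AND T cells was hybridised to Affymetrix mouse arrays, 1 for each of 16 samples, with 45101 probe sets. Per the labels' protocols it was extracted with Trizol, amplified repeatedly and labelled with biotin, which favours the 3′ ends of transcripts. The deposited values are linear intensities, and the submitters' processing notes name RMA for them; its version is not given in the sources used here. They were used as log2(intensity + 1), which shrinks differences between dim genes. The number of arrays limits the precision.

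Of the probe sets 34945 had 1 gene symbol, 932 several, and 9211 were not listed in the table of names. The 18193 genes were each represented by the probe set with the highest mean. limma 3.58.1 in R 4.3.3, with the package data.table (version 1.17.8), fitted 6 group means over 16 arrays with an intensity trend. Benjamini-Hochberg adjustment ran over all genes, and an adjusted p of 0.05 was the threshold. The same fit was made with the replicate number as a block. Deviations from group means correlated at 0.48 to 0.81 in 36 same-numbered pairs. In the other 70 the median was −0.53 and the highest value 0.60, so the ranges overlapped. Deviations cancel out within each group, so this negative median is tied to the positive same-numbered values and is not separate evidence of pairing. All 16 arrays correlated best with their own number. The numbers were therefore treated as pairing, on the data's evidence alone, since no label says so. The fit was tested on simulated data.

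The 10 genes, the gene lists and the tests were chosen with earlier results of these data known. All 10 genes are named. Of each other list up to 3 genes with the smallest p in a comparison are named where they passed, and for each of the 10 the genes most like it by Pearson r, the first of 3 or all 3. Alternatives were the replicate block, a block of array runs, log2(intensity + 16), removal of dim genes, averaging over probe sets, cyclic loess and leaving out each array. Their repeats with the block were chosen after seeing the data.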

Additional observations from a re-analysis of the deposited data

Results flagged for a closer look

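The anti-CD40 effect differed between antigen regimes for 4 of the 10 genes, by an interaction term with the replicate block. Between transient and no antigen the difference of effects was 1.07 for Dnmt1, 1.98 for Uhrf1, 1.79 for Hells and 1.28 for Ezh2 (log2, adjusted p = 0.037, 0.022, 0.0029 and 0.045 in limma). Between persistent and transient antigen it was −1.12 for Dnmt1, −2.16 for Uhrf1 and −1.73 for Hells (adjusted p = 0.036, 0.019 and 0.0030). With the block 3.69% of all genes passed in the first interaction and 1.79% in the second. Leaving out single arrays lost calls of Dnmt1, Uhrf1 and Ezh2, while both Hells terms held throughout. Without the block none of these 7 terms passed, with adjusted p of 0.39 to 1.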

How the results depend on the processing

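With the replicate block the members called increased to 1 of 10 in transient against no antigen with PBS (0 without it), 7 in persistent against no antigen with PBS (3), 7 in persistent against transient antigen with PBS (1), 7 in transient against no antigen with anti-CD40 (1), 7 in persistent against no antigen with anti-CD40 (2), 7 in anti-CD40 against PBS under transient antigen (1), and 4 and 3 in the interactions of transient with no and of persistent with transient antigen (0 each). It changed no other count. The share of all genes called rose with the block too. In the same order it went from 0.126% to 2.89%, 3.57% to 16.7%, 0.929% to 11.4%, 0.572% to 14.0%, 2.37% to 16.4% and 0.638% to 10.5%. In the interactions it went from 0% to 3.69% and 1.79%. A block of array runs gave 1, 7, 7, 7, 6, 7, 5 and 3 in the same order. Leaving out dim genes gave 5 in persistent against no antigen with PBS and 2 in transient against no antigen with anti-CD40. With probe sets averaged per gene 0 were called in persistent against transient antigen with PBS and in transient against no antigen with anti-CD40. Cyclic loess gave 5 and 2 in persistent antigen with PBS against no and against transient antigen, 1 in persistent against no antigen with anti-CD40 and 2 in anti-CD40 under transient antigen. In the blocked fit 2 were called in transient against no antigen with PBS without dim genes and with cyclic loess, Tet2 joining Ezh2.

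Leaving out each array gave 1 to 4, 1 to 2, 0 to 3, 0 to 4 and 0 to 1 calls in the 5 comparisons that had any without the block, in the order above. With the block it gave 0 to 2, 6 to 8, 5 to 8, 5 to 7, 5 to 8 and 4 to 7, and 1 to 4 in each interaction. Of the array omissions behind these ranges, the first interaction had 1 or 2 calls without none PBS replicate 1, none anti-CD40 replicate 2, transient PBS replicate 2 or 3, either transient anti-CD40 array, persistent PBS replicate 1 or 3 or persistent anti-CD40 replicate 3. The second had 1 without transient anti-CD40 replicate 2, persistent PBS replicate 3 or persistent anti-CD40 replicate 1. No called difference changed sign. Of 48 refits of the 8 unblocked calls by other settings 43 kept the call, and of 128 that left out an array 113 did. With the block 167 of 215 and 604 of 688 kept it. The 5 unblocked refits lost by other settings were all of Hells. Its calls over no antigen with anti-CD40 were lost with probe sets averaged and with cyclic loess. That held under transient antigen (adjusted p up to 0.081 in limma) and persistent antigen (up to 0.065). With PBS its call for persistent against transient antigen was lost with probe sets averaged (0.055). Removing the block itself lost 35 of the 43 blocked calls, all but those of Hells in the 5 comparisons that called it, Dnmt1 and Ezh2 in persistent against no antigen with PBS and Ezh2 there with anti-CD40. Other settings with the block lost 13 of 172, for Suz12, Eed, Dnmt3a and interactions of Dnmt1, Uhrf1 and Ezh2. Leaving out an array lost calls of Suz12 (27), Eed (6), Dnmt3a (6), Tet2 (5), Ezh2 in transient against no antigen with PBS (2) and the interactions of Dnmt1 (20), Ezh2 (12) and Uhrf1 (6). Differences of dim genes such as Tet3 have limited precision, since their signal is near the median gene.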
